A study of Mus musculus with 24 samples.

Results

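Follicular regulatory T cells (TFR) were compared with regulatory T cells (Treg) of control mice across all genes. The comparison used 6 of the 24 libraries of the study, 3 of control TFR and 3 of control Treg cells, chosen by their labels alone. The study as a whole sequenced total RNA of 4 CD4 T cell subsets from control mice and from mice given the recombinant proteins OX40L and JAG1. All mice were female NZBWF1/j, hybrids that spontaneously develop autoimmunity resembling lupus. The treated mice, used below for 1 comparison, were 23 weeks old at the first of 3 weekly intraperitoneal doses of 2 mg/kg of each protein, and the control mice, matched for age and sex, were given PBS. Cells of both arms were collected at week 26. TFR cells had been sorted as CD4+CXCR5+PD1Hi GITRHi and Treg cells as CD4+CXCR5-GITR+, so neither gate used FOXP3, and genes of the gates check the labels and are no finding. Nothing in the labels says that the libraries came from separate mice or how many mice went into each, and the p-values therefore speak of library-to-library spread alone, which may be technical.

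Treg cells restrain immune responses and depend on the transcription factor FOXP3. TFR cells are Treg cells that have taken up features of follicular helper T cells, including BCL6 and the chemokine receptor CXCR5, and that act in B cell follicles, where they limit germinal centre and antibody responses. Naive-type Treg cells instead circulate through lymphoid tissue, entering with CCR7 and leaving through S1PR1.

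Depth differed between the groups. Control TFR libraries held 9.62, 8.52 and 4.85 M counts (M for mega) and control Treg libraries 27.1, 27.4 and 28 M. Thinned to the smallest library, 12581 ± 631 genes were detected in TFR and 15755 ± 123 in Treg libraries (SD, n = 3 each), and the groups did not overlap. The biological coefficient of variation, the replicate spread left after counting noise, was 0.779 among TFR and 0.223 among Treg libraries. Mitochondrially encoded genes took 10.6 ± 0.663% of counts in TFR and 10.7 ± 0.944% in Treg libraries. A single gene, Gm42418, took 14.9% of the counts of control Treg 3 and 0.172 to 0.709% in the other 5 libraries.

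Values below are CPM (counts per M counts) scaled with TMM factors, in the order of library numbers. Log2 fold changes are of TFR over Treg cells with their standard error. A gene is called where the adjusted p of edgeR's quasi-likelihood test was below 0.05. In these sorted populations, fewer cells of a type and less RNA per cell cannot be told apart.

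Among 13163 genes tested, 207 were higher (1.57% of those tested) and 256 lower (1.94%) in TFR than in Treg cells, together 3.52%. The median log2 fold change of all genes was -0.03. Every TFR value lay above every Treg value for 1261 genes (9.58%) and below for 2205 (16.8%). The called genes were mostly protein-coding, 202 of the higher and 242 of the lower ones. The test pools the spread of both groups, and the pooled biological coefficient of variation was 0.512. How far calls lost without a Treg library follow from this pooling was not tested. The number called changed with the libraries kept. Without control Treg 1, 2 or 3 it was 139, 110 and 132 genes, against 463 with all libraries, and without control TFR 3 it was 779. Of the 83 genes named in the text that were called, 31, 29 and 30 stayed called without control Treg 1, 2 and 3, and 67, 60 and 78 without control TFR 1, 2 and 3.

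**Figure D1:**
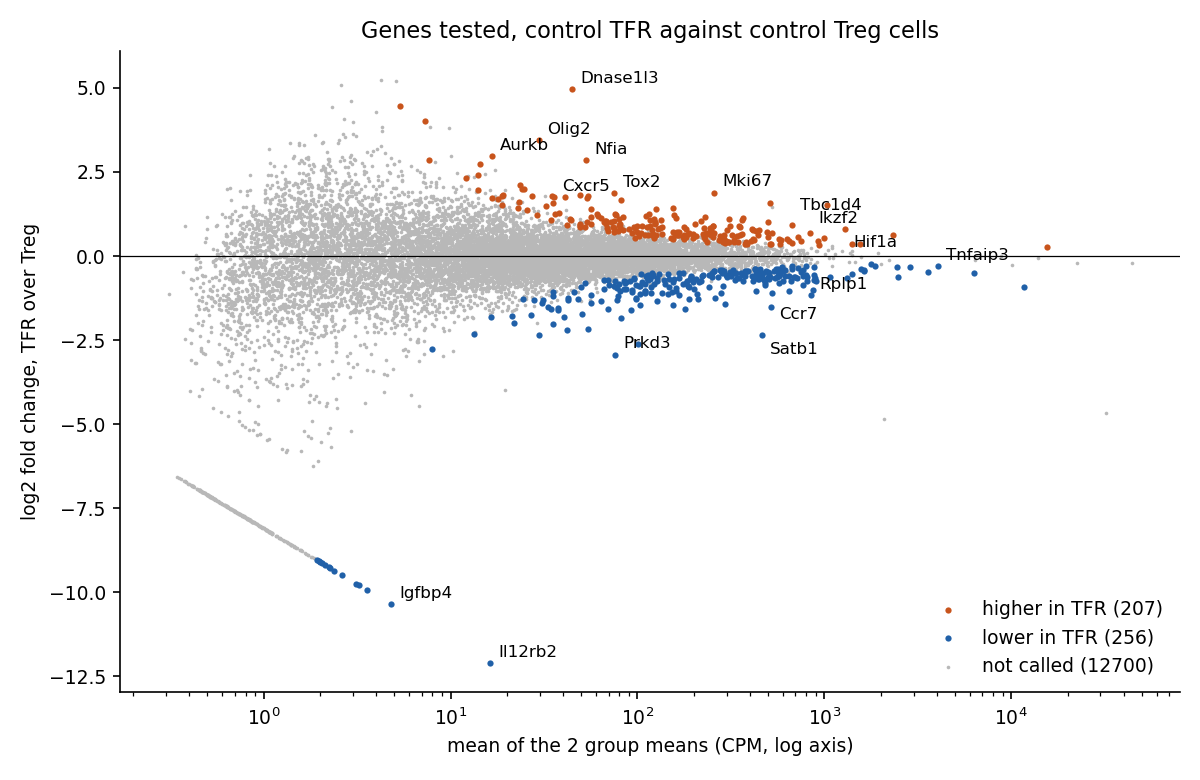
Mean expression (CPM, log axis) against the log2 fold change of TFR over Treg cells for the 13163 genes tested in control mice, each point a gene. Orange points are the 207 genes called higher and blue points the 256 called lower in TFR cells, and the line of points at lower left holds genes without a read in TFR libraries, whose fitted fold change is no estimate of size.

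Of the genes of the gates, Cxcr5 and Pdcd1 were higher in TFR cells and Tnfrsf18 was not called. Cxcr5, the CXCL13 receptor, had 50.6, 70.9 and 43.9 CPM in TFR and 15, 18.1 and 16.1 CPM in Treg libraries, a log2 fold change of 1.75 ± 0.26 (adjusted p = 0.00804). Pdcd1, encoding PD1, had 326, 426 and 384 CPM in TFR against 243, 224 and 204 CPM in Treg libraries (0.76 ± 0.12, adjusted p = 0.00944). Both genes were higher in each TFR library than in any Treg library. Tnfrsf18, encoding GITR, overlapped between the groups, with 161, 210 and 221 CPM in TFR against 237, 242 and 207 CPM in Treg libraries (-0.22 ± 0.13, adjusted p = 0.506). Cd4 had 546, 491 and 480 CPM in TFR against 538, 517 and 522 CPM in Treg libraries (-0.06 ± 0.08, adjusted p = 0.831). Foxp3 was expressed in all 6 libraries, with 329, 352 and 410 CPM in TFR against 486, 498 and 445 CPM in Treg libraries. The TFR values all lay below the Treg values, and the difference of -0.39 ± 0.10 did not pass the test (adjusted p = 0.0753). Exons of Foxp3 overlap other genes over 45.5% of their length and those of Tnfrsf18 over 27.2%, so reads of these genes may be shared. Across the other settings tried the adjusted p of Foxp3 ran from 0.0036 to 0.348, and 5 of them called it.

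Genes of the follicular helper program were higher in TFR cells. Of 29 tested members of the list, 13 were called higher and none lower (44.8%, against 3.52% of all genes tested). The median log2 fold change was 0.76, against -0.03 for all genes. The list includes the sort genes Cxcr5 and Pdcd1, and its median is the value of Pdcd1. Tox2, a nuclear factor of follicular helper cells, had 82.4, 154 and 118 CPM in TFR against 30.9, 35.5 and 30.8 CPM in Treg libraries (1.86 ± 0.23, adjusted p = 0.00334). Bcl6 had 133, 138 and 164 CPM in TFR against 86.3, 81.2 and 71.6 CPM in Treg libraries, a log2 fold change of 0.86 ± 0.14 (adjusted p = 0.0109). For both genes the lowest TFR library lay above the highest Treg library. Sh2d1a, encoding the SLAM adaptor SAP that T cells need to stay attached to B cells, had 162, 163 and 150 CPM in TFR against 76.3, 71.1 and 77.1 CPM in Treg libraries (1.08 ± 0.11, adjusted p = 0.00166). Its exons overlap another gene over 26.6% of their length. Tbc1d4, a Rab GTPase-activating protein of glucose transporter traffic, had 835, 880 and 920 CPM in TFR against 482, 462 and 437 CPM in Treg libraries (0.93 ± 0.07, adjusted p = 6.89e-04).

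The other follicular genes called higher rose by less or varied more. Btla, a co-inhibitory receptor, had 49.9, 60.0 and 52.9 CPM in TFR against 23.0, 21.8 and 21.8 CPM in Treg libraries (1.29 ± 0.21, adjusted p = 0.012). Maf, a transcription factor of interleukin-21 and interleukin-10 expression, had a log2 fold change of 0.61 ± 0.12, Tox of 0.59 ± 0.13, Cd200 of 0.81 ± 0.15 and the transcription factor Cebpa of 1.70 ± 0.36 (adjusted p = 0.0243, 0.039, 0.0243 and 0.0383). Genes of the same program that did not pass the test included Icos, the costimulatory receptor of the follicular response, with 0.12 ± 0.08 (adjusted p = 0.512). Il21, the cytokine that helps B cells, had 24.4, 21 and 51.4 CPM in TFR against 12.4, 15.8 and 15.3 CPM in Treg libraries. Its groups did not overlap, but control TFR 3 stood well above the other TFR libraries, and the log2 fold change of 1.15 ± 0.39 did not pass (adjusted p = 0.16). Follicular genes called numbered 4, 3 and 3 without control Treg 1, 2 and 3. Tox2, Tbc1d4 and Sh2d1a stayed called under every setting tried.

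**Figure D2:**
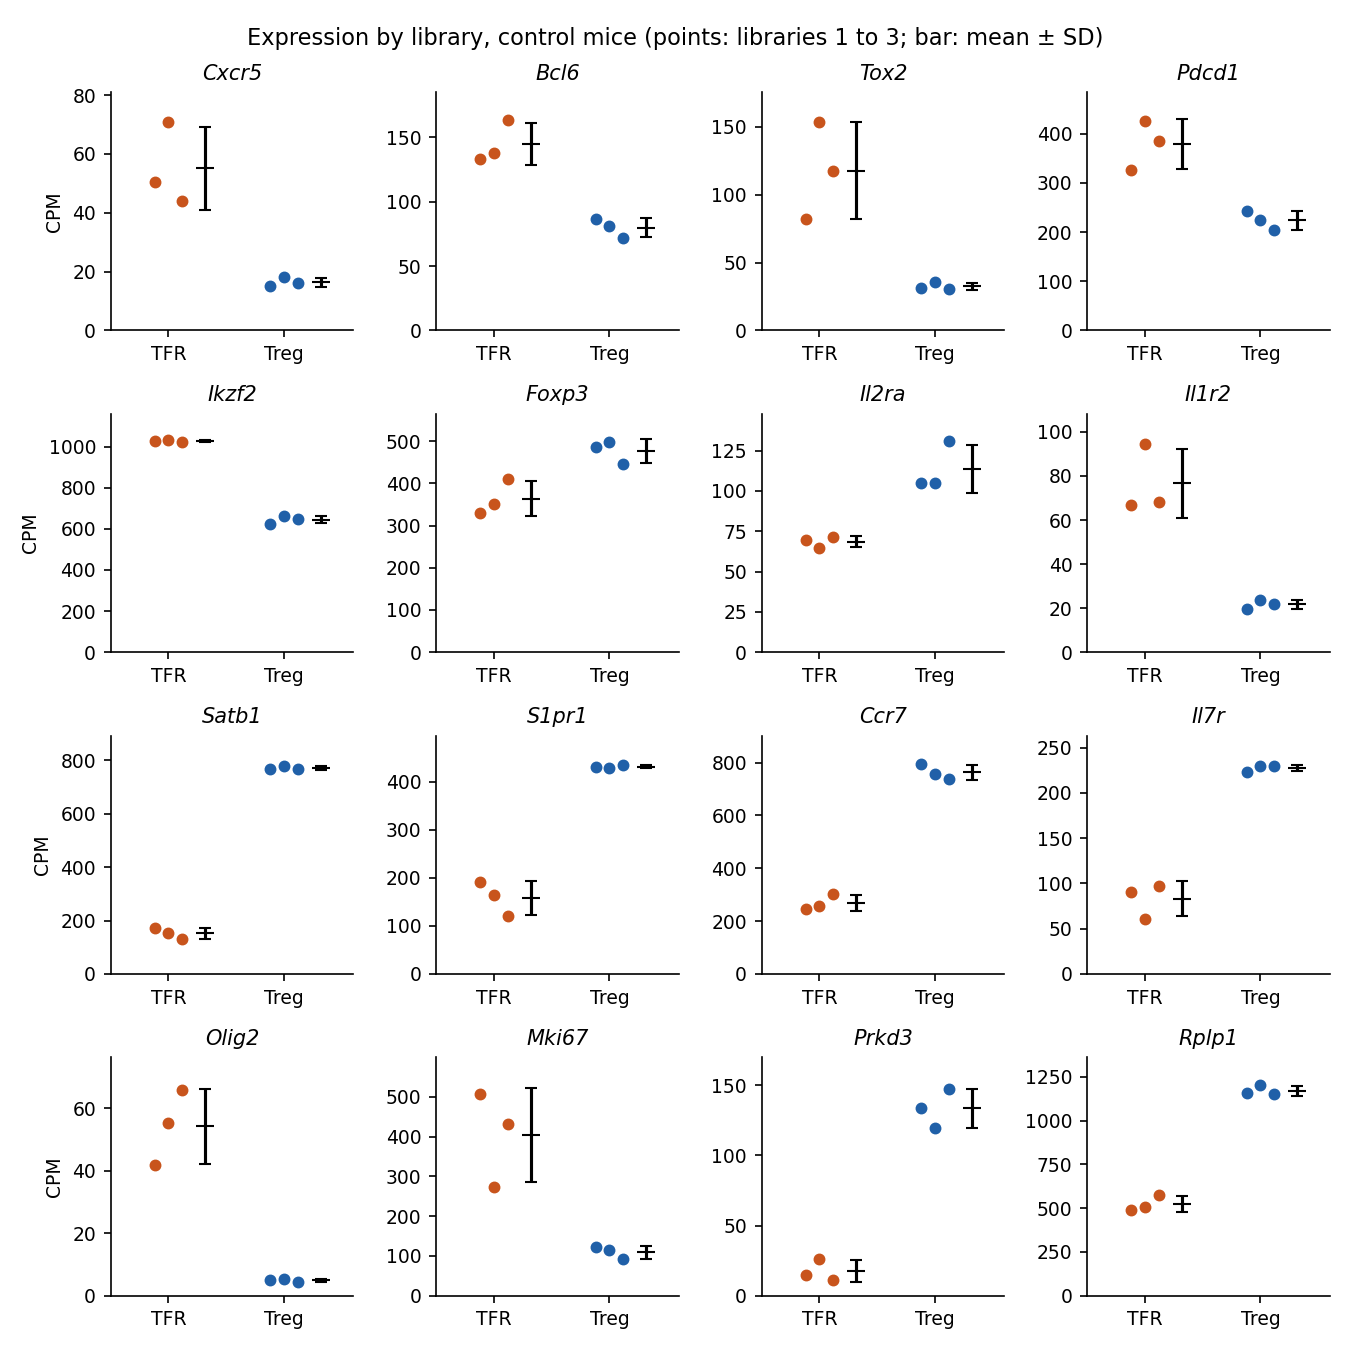
CPM of 16 genes in each control library, TFR at left and Treg at right, with the mean and SD of the 3 libraries beside the points. In the top row every TFR library lies above every Treg library, whereas Satb1, S1pr1, Ccr7 and Il7r lie below in all 3 TFR libraries.

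Treg genes moved in both directions. Among 27 tested core Treg genes, 3 were called higher and 1 lower (14.8%, against 3.52% of all genes tested), with a median log2 fold change of -0.04. Ikzf2, encoding Helios, had 1027, 1034 and 1021 CPM in TFR against 626, 662 and 646 CPM in Treg libraries, and the groups lay far apart relative to their spread (0.67 ± 0.06, adjusted p = 0.00102). Nt5e, encoding the adenosine-forming enzyme CD73, had 284, 283 and 243 CPM in TFR against 194, 181 and 176 CPM in Treg libraries (0.56 ± 0.10, adjusted p = 0.0184). Ctla4, the inhibitory receptor that captures CD80 and CD86, had 707, 843 and 737 CPM in TFR against 591, 579 and 579 CPM in Treg libraries (0.39 ± 0.08, adjusted p = 0.0376). Il2ra, the alpha chain of the interleukin-2 receptor, was the core gene called lower, with 69.8, 64.5 and 71.5 CPM in TFR against 105, 105 and 131 CPM in Treg libraries (-0.73 ± 0.15, adjusted p = 0.0295). Of the 4, only Ikzf2 was called without each of control Treg 1, 2 and 3. Without 1 of these libraries the adjusted p of the others reached 0.148 for Nt5e, and their highest under any setting tried was 0.21 for Ctla4 and 0.208 for Il2ra. Nrp1, a surface marker of thymus-derived Treg cells, did not pass, with 0.49 ± 0.14 (adjusted p = 0.108), although its groups did not overlap.

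Among effector Treg genes, an integrin chain was higher and a pair of chemokine receptors lower. Of 28 tested genes of effector and tissue Treg cells, 1 was called higher and 2 lower (10.7%, against 3.52% of all genes tested), and the median was 0.01. Itgb8, whose product forms the integrin that activates TGF-beta, had 188, 177 and 127 CPM in TFR against 72.0, 81.3 and 95.3 CPM in Treg libraries (0.99 ± 0.18, adjusted p = 0.0184). The chemokine receptors of inflamed tissue Cxcr6 (-2.19 ± 0.43, adjusted p = 0.0282) and Ccr2 (-1.82 ± 0.36, adjusted p = 0.0278) were lower. Cxcr6 had 24, 15 and 5.47 CPM in TFR against 68.9, 66.7 and 70.7 CPM in Treg libraries. Il10 had 98.7, 108 and 170 CPM in TFR against 109, 101 and 93.2 CPM in Treg libraries, so the groups overlapped (0.31 ± 0.20, adjusted p = 0.532). Prdm1, the transcription factor of effector Treg cells, had 88.4, 71.0 and 49.6 CPM in TFR against 50.7, 50.3 and 53.3 CPM in Treg libraries (0.44 ± 0.22, adjusted p = 0.374). None of the 3 called genes of this list was called without control Treg 1, 2 or 3.

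Among 15 co-inhibitory receptors tested, 5 were called higher and 1 lower (40%, against 3.52% of all genes tested), with a median of -0.12. The 5 include Pdcd1, a gene of the gates. Besides Pdcd1, Btla, Cd200 and Ctla4, described above, Tigit was higher, with 392, 559 and 606 CPM in TFR against 304, 296 and 289 CPM in Treg libraries (0.81 ± 0.15, adjusted p = 0.0197). The spread among its TFR libraries was wide, and all 3 lay above the Treg libraries. Vsir, encoding VISTA, a checkpoint protein of quiescent T cells, was lower by -0.53 ± 0.12 (adjusted p = 0.0481). Lag3 did not pass (-0.24 ± 0.25, adjusted p = 0.75). The receptors called higher numbered 1, 0 and 0 without control Treg 1, 2 and 3, and Vsir was not called without any 1 of them, without control TFR 1, with relative log expression factors, another scaling, without the filter on low counts or with limma's voom model (adjusted p up to 0.28). Of 17 costimulatory and SLAM family genes, Sh2d1a was the 1 called (5.88% of the list, against 3.52% of all genes tested). Tnfrsf9, encoding 4-1BB, had 0.26 ± 0.09 (adjusted p = 0.14).

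Genes of the naive state and of recirculation were lower in TFR cells. Of 19 tested members, 13 were called lower and none higher (68.4%, against 3.52% of all genes tested). The median log2 fold change was -1.31. Igfbp4, 1 of the 13, passed the filter on low counts through its Treg values alone, so its direction was fixed by the filter. Satb1, a chromatin organiser of naive T cells on chromosome 17 (GRCm38, chr17:51736187-51833290), had 171, 152 and 132 CPM in TFR against 767, 779 and 768 CPM in Treg libraries. The groups differed 5.08-fold, and the log2 fold change of -2.35 ± 0.10 had an adjusted p of 4.53e-05. Ccr7, the receptor for the chemokines of the T cell zone, had 247, 256 and 305 CPM in TFR against 793, 759 and 738 CPM in Treg libraries (-1.50 ± 0.10, adjusted p = 2.67e-04). Neither gene overlapped between the groups.

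The genes that hold naive cells in circulation were lower together with their transcription factors. S1pr1, the receptor for exit into lymph, had 191, 164 and 121 CPM in TFR against 431, 429 and 435 CPM in Treg libraries (-1.44 ± 0.15, adjusted p = 0.00151). Klf2, the factor that drives S1pr1, had 55.3, 45.0 and 36.1 CPM in TFR against 134, 141 and 142 CPM in Treg libraries (-1.61 ± 0.17, adjusted p = 0.00176). For both genes the highest TFR library lay far below the lowest Treg library. Lef1 (-1.57 ± 0.15, adjusted p = 0.00104) and Tcf7 (-0.61 ± 0.08, adjusted p = 0.00352), the T cell factors of the Wnt pathway, were lower as well. Bach2, a repressor that keeps Treg cells in the resting state, had 121, 125 and 85.2 CPM in TFR against 266, 278 and 258 CPM in Treg libraries (-1.27 ± 0.15, adjusted p = 0.00247). Foxp1, a factor of T cell quiescence, was lower by -0.47 ± 0.08 (adjusted p = 0.0131). Igfbp4, which binds insulin-like growth factors, had no read in the TFR libraries and 12, 7.41 and 9.39 CPM in Treg libraries. Taking 3 reads in the whole TFR group as the floor, it was at least 77.2-fold lower in TFR cells. This bound covers counting error only and leaves out the spread among the TFR libraries. The number of naive genes called was 10, 9 and 10 without control Treg 1, 2 and 3.

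**Figure D3:**
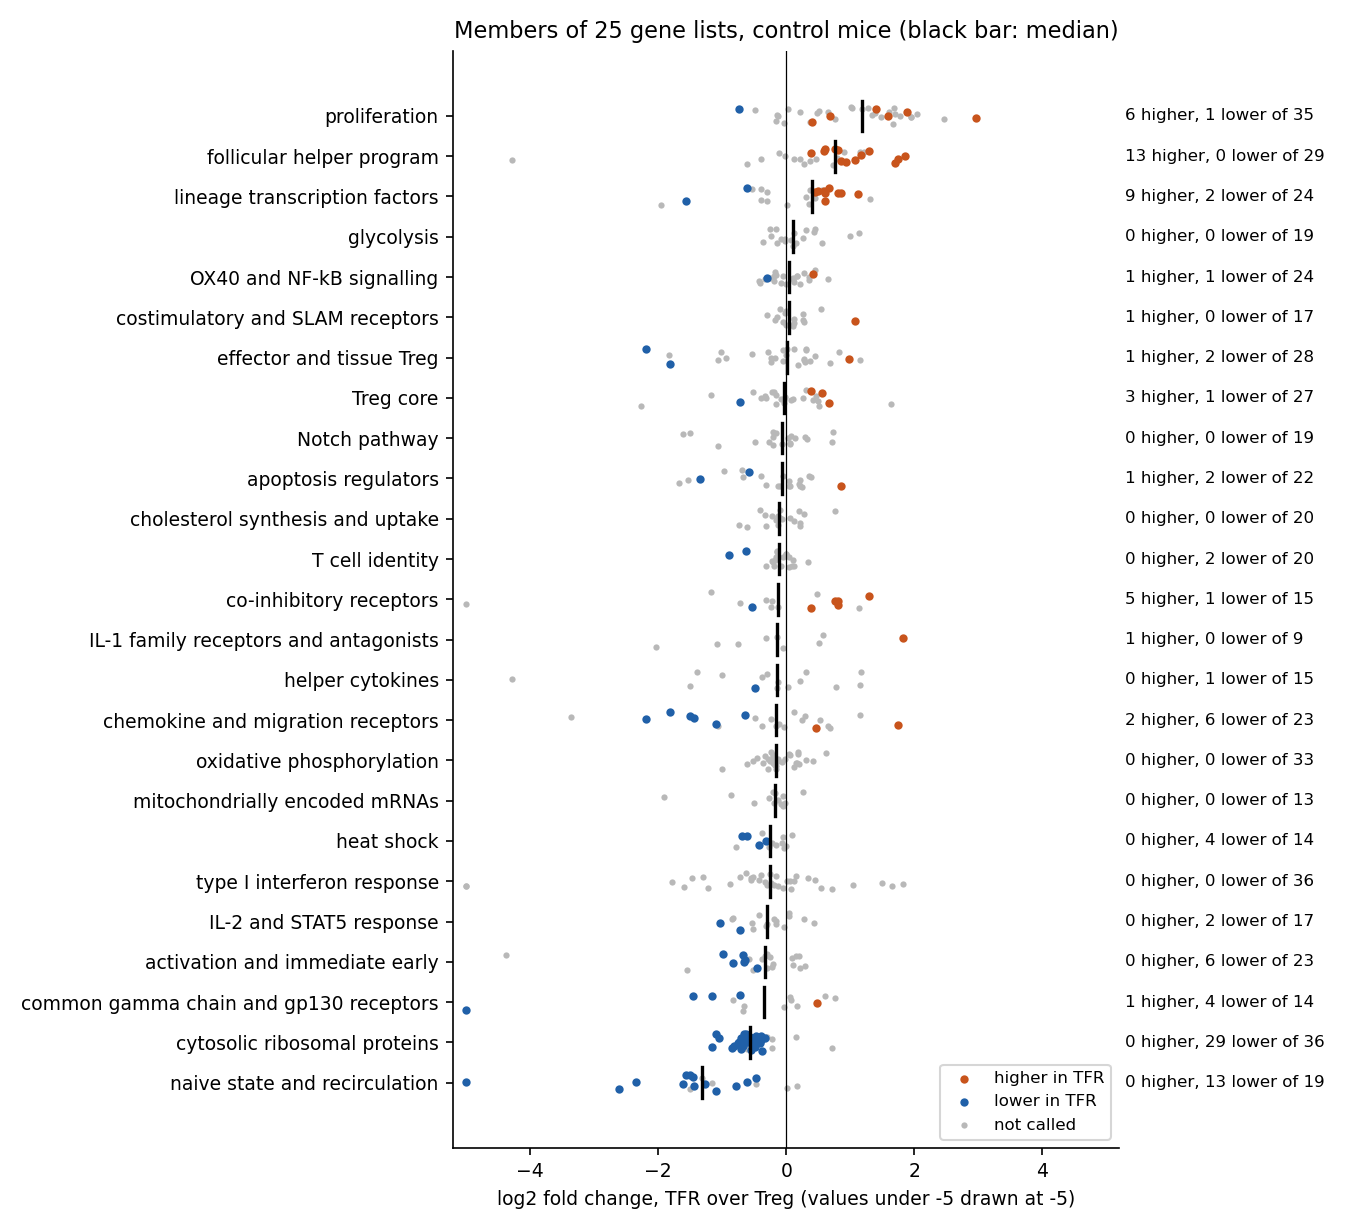
Log2 fold changes of TFR over Treg cells for the tested members of 25 gene lists in control mice, 1 point a gene, sorted by the list median (black bar), with the numbers called at right. The naive list (median -1.31) and the ribosomal protein list (-0.57) lie at the low end, and the proliferation (1.19) and follicular helper lists (0.76) at the high end.

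Cytokine receptor chains were mostly lower where they were called. Of 14 tested receptors of the common gamma chain and gp130 families, 4 were called lower and 1 higher, with a median of -0.34. These calls are 35.7% of the list, against 3.52% of all genes tested. Il7r, the receptor chain for interleukin-7, a survival factor of resting T cells, had 90.9, 60.9 and 97.1 CPM in TFR against 223, 229 and 230 CPM in Treg libraries (-1.46 ± 0.17, adjusted p = 0.00246). Il4ra had 87.8, 86.3 and 137 CPM in TFR against 225, 242 and 226 CPM in Treg libraries (-1.16 ± 0.18, adjusted p = 0.00937). The third chain called lower was Il2ra, given above. Il12rb2, a chain of the interleukin-12 receptor of type 1 helper cells, had no read in any TFR library against 34.2, 27.3 and 35.7 CPM in Treg libraries (adjusted p = 9.60e-04). Against the floor of 3 reads this is at least 260-fold lower, a bound for counting error only. Of the exon length of Il12rb2, 40.0% overlaps another gene, so that its reads may be shared. Il12rb2, 1 of the 4 chains called lower, passed the filter on low counts through its Treg values alone. Its direction was therefore fixed by the filter. Il6st, encoding gp130, was the chain called higher (0.47 ± 0.10, adjusted p = 0.0301), and it was not called without control Treg 1, 2 or 3 or control TFR 1 (adjusted p up to 0.195). Cish, an inhibitor of signalling that interleukin-2 induces through STAT5, had 120, 83.8 and 112 CPM in TFR against 223, 215 and 210 CPM in Treg libraries (-1.03 ± 0.14, adjusted p = 0.00563). It was 1 of 2 genes called lower among 17 tested genes of the interleukin-2 and STAT5 response, and Il2ra was the other. These 2 genes are 11.8% of that list, against 3.52% of all genes tested. Without control Treg 2 or 3 the number of receptor chains called lower was 2 each.

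Il1r2, the decoy receptor that takes up interleukin-1 without signalling, was the 1 of 9 tested genes of the interleukin-1 family list that was called (11.1%, against 3.52% of all genes tested). It had 67.0, 94.7 and 68.2 CPM in TFR against 19.7, 23.6 and 22 CPM in Treg libraries. The groups were well apart, with a log2 fold change of 1.82 ± 0.21 (adjusted p = 0.00261), and the call held under every setting tried. Il13ra1, a chain of the interleukin-13 receptor that was in no list, had 15.9, 11.4 and 13.9 CPM in TFR against 0.664, 1.45 and 0.419 CPM in Treg libraries (4.01 ± 0.74, adjusted p = 0.0215). Its call was lost without control Treg 1, 2 or 3 (adjusted p up to 0.134). Of 15 helper cytokines tested, Ltb, encoding lymphotoxin beta, was called lower (-0.49 ± 0.11, adjusted p = 0.0459) and none higher, and its call too was lost without any 1 of the Treg libraries (adjusted p up to 0.284). The 1 call is 6.67% of the list, against 3.52% of all genes tested.

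More migration receptors were called lower than higher. Of 23 tested, Cxcr5 included, 2 were called higher and 6 lower (34.8%, against 3.52% of all genes tested). The median was -0.15. Besides S1pr1, Ccr7, Cxcr6 and Ccr2, the adhesion ligand Selplg was lower, with 100, 81.9 and 76.0 CPM in TFR against 190, 172 and 190 CPM in Treg libraries (-1.09 ± 0.13, adjusted p = 0.00305). Without control Treg 1, 2 or 3 neither of those called higher, Cxcr5 among them, was called, and those called lower numbered 4, 4 and 3.

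Lineage transcription factors were higher more often than lower. Of 24 tested, 9 were called higher and 2 lower (45.8%, against 3.52% of all genes tested), with a median of 0.41. Hif1a, the hypoxia-inducible factor, had 1641, 1796 and 1492 CPM in TFR against 946, 893 and 959 CPM in Treg libraries (0.82 ± 0.08, adjusted p = 0.00126). Zeb2, a zinc finger repressor of effector T cells, had 113, 66.7 and 81.6 CPM in TFR against 36.7, 42.6 and 40.9 CPM in Treg libraries (1.12 ± 0.22, adjusted p = 0.0255). Every TFR value of both genes lay above every Treg value. Nfil3 (0.61 ± 0.10), Bhlhe40 (0.50 ± 0.09) and Rora (0.44 ± 0.07) changed less (adjusted p = 0.0126, 0.0198 and 0.00804). The others called higher were Bcl6, Maf, Tox and Ikzf2, given above, and those called lower were Lef1 and Tcf7. Without control Treg 1, 2 or 3 the number called higher was 2, 2 and 3, Ikzf2 and Hif1a among them each time.

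Proliferation genes had the highest median of all lists, 1.19, but 6 of 35 tested members were called higher and 1 lower. These calls are 20% of the list, against 3.52% of all genes tested. Mki67, a marker of cycling cells, had 506, 273 and 433 CPM in TFR against 122, 115 and 91.3 CPM in Treg libraries (1.88 ± 0.22, adjusted p = 0.00238). Top2a, the topoisomerase of dividing cells, had 184, 174 and 191 CPM in TFR against 66.7, 67.2 and 74.4 CPM in Treg libraries (1.40 ± 0.11, adjusted p = 6.89e-04). Aurkb, a mitotic kinase, had 29.6, 31.3 and 27.1 CPM in TFR against 3.50, 4.69 and 3.10 CPM in Treg libraries (2.96 ± 0.37, adjusted p = 0.00352). These 3 genes had non-overlapping groups and were called under every setting tried. Mcm10, a replication factor, and Ncapg, a condensin subunit, were in no list and were higher by 2.40 ± 0.44 and 1.99 ± 0.28 (adjusted p = 0.0218 and 0.00632). Neither was called without control Treg 1, 2 or 3, nor Mcm10 without control TFR 1 (adjusted p up to 0.144 for Mcm10 and 0.0617 for Ncapg). Kif23, a kinesin of cytokinesis, was the member called lower, with 63.8, 49.8 and 57.4 CPM in TFR against 96.7, 101 and 88.3 CPM in Treg libraries (-0.74 ± 0.16, adjusted p = 0.037). Its call was lost without control Treg 1, 2 or 3, without control TFR 2, with voom and after thinning to the smallest library (adjusted p up to 0.244). The number of members called higher was 3 without control Treg 2 or 3 and 20 with DESeq2.

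Genes of early activation were lower in TFR cells where they were called. Of 23 tested, 6 were called lower and none higher (26.1%, against 3.52% of all genes tested), with a median of -0.33. Btg2, an anti-proliferative immediate early gene, had 139, 120 and 144 CPM in TFR against 272, 265 and 260 CPM in Treg libraries (-0.99 ± 0.10, adjusted p = 0.00159). The AP-1 subunits Jun (-0.66 ± 0.12, adjusted p = 0.0232) and Fosl2 (-0.45 ± 0.08, adjusted p = 0.0149) and the nuclear receptor Nr4a1 (-0.83 ± 0.16, adjusted p = 0.0294) were lower too. Of 14 heat shock genes, 4 were called lower (28.6%, against 3.52% of all genes tested). Among them was Hspa1b with 126, 94.3 and 117 CPM in TFR against 193, 183 and 169 CPM in Treg libraries (-0.69 ± 0.13, adjusted p = 0.0245). Without control Treg 1, 2 or 3 the early activation genes called numbered 1 each time, which was Btg2, and the heat shock genes 0.

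Of 22 apoptosis regulators, 1 was called higher and 2 lower (13.6%, against 3.52% of all genes tested). Bcl2l11, encoding the death inducer BIM, had 71.9, 88.5 and 54.1 CPM in TFR against 193, 177 and 179 CPM in Treg libraries (-1.35 ± 0.17, adjusted p = 0.004). Mcl1, a survival protein, was lower by -0.59 ± 0.11 (adjusted p = 0.0243), and Pmaip1, encoding its antagonist NOXA, was higher by 0.86 ± 0.19 (adjusted p = 0.0471). Bcl2l11 alone of these 3 was called without each of the Treg libraries. Among 24 genes of OX40 and NF-kB signalling, Nfkbiz was higher (0.41 ± 0.08, adjusted p = 0.0291) and Tnfaip3, the NF-kB inhibitor A20, lower (-0.30 ± 0.06, adjusted p = 0.0384). These 2 genes are 8.33% of the list, against 3.52% of all genes tested. Neither was called without control Treg 1, 2 or 3. Of 20 tested T cell identity genes 2 were called (10%, against 3.52% of all genes tested), both lower. Among them was Thy1 (-0.89 ± 0.15, adjusted p = 0.0134), which was not called without control Treg 1, 2 or 3 (adjusted p up to 0.112).

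No member was called in 6 further lists by edgeR's quasi-likelihood test. These held 19 genes of the Notch pathway (median log2 fold change -0.07), 19 of glycolysis (0.11), 33 of oxidative phosphorylation (-0.16), 20 of cholesterol synthesis and uptake (-0.11), 36 of the type I interferon response (-0.25) and the 13 mitochondrially encoded mRNAs (-0.18). At an unadjusted p below 0.05 stood 2, 3, 5, 0, 10 and 4 of them, and DESeq2 called 2, 2, 4, 0, 9 and 2. Over all genes tested the shares were 16.9% at an unadjusted p below 0.05 and 14.5% with DESeq2.

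Genes of cytosolic ribosomal proteins, the structural subunits of ribosomes, were lower in TFR cells nearly throughout. Of 36 tested list members 29 were called lower and none higher (80.6%, against 3.52% of all genes tested). The median log2 fold change was -0.57. Their summed level was 15929, 17115 and 16744 CPM in TFR against 24765, 25039 and 24736 CPM in Treg libraries, without overlap. Rplp1, a stalk protein of the large subunit, had 487, 509 and 572 CPM in TFR against 1160, 1202 and 1150 CPM in Treg libraries (-1.16 ± 0.08, adjusted p = 3.21e-04). Rps14, of the small subunit, was lower as well (-1.05 ± 0.08, adjusted p = 4.52e-04). Both genes were called under every setting tried. Over all 80 tested protein-coding Rpl and Rps genes, 53 were called lower and none higher, and the median was -0.52. Ribosomal protein genes have many near-identical pseudogenes, so their levels depend on how shared reads were counted. List members called lower numbered 15, 13 and 14 without control Treg 1, 2 and 3.

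The length of a gene went along with the calls. The summed exon length had a median of 7.23 kb among the 207 genes called higher, 3.41 kb among the 256 called lower, and 4.07 kb among all genes tested. Without ribosomal protein genes the 203 genes called lower had a median of 4.12 kb. When the genes were ordered by length into 5 equal groups, the shortest held 4 genes called higher and 57 lower, and the longest 105 higher and 42 lower. The median log2 fold change of these groups ran from -0.21 in the shortest to 0.06 in the longest. The part of gene length in the results above, which include short ribosomal protein genes among those lower and long genes such as Ikzf2 among those higher, was not tested.

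**Figure D4:**
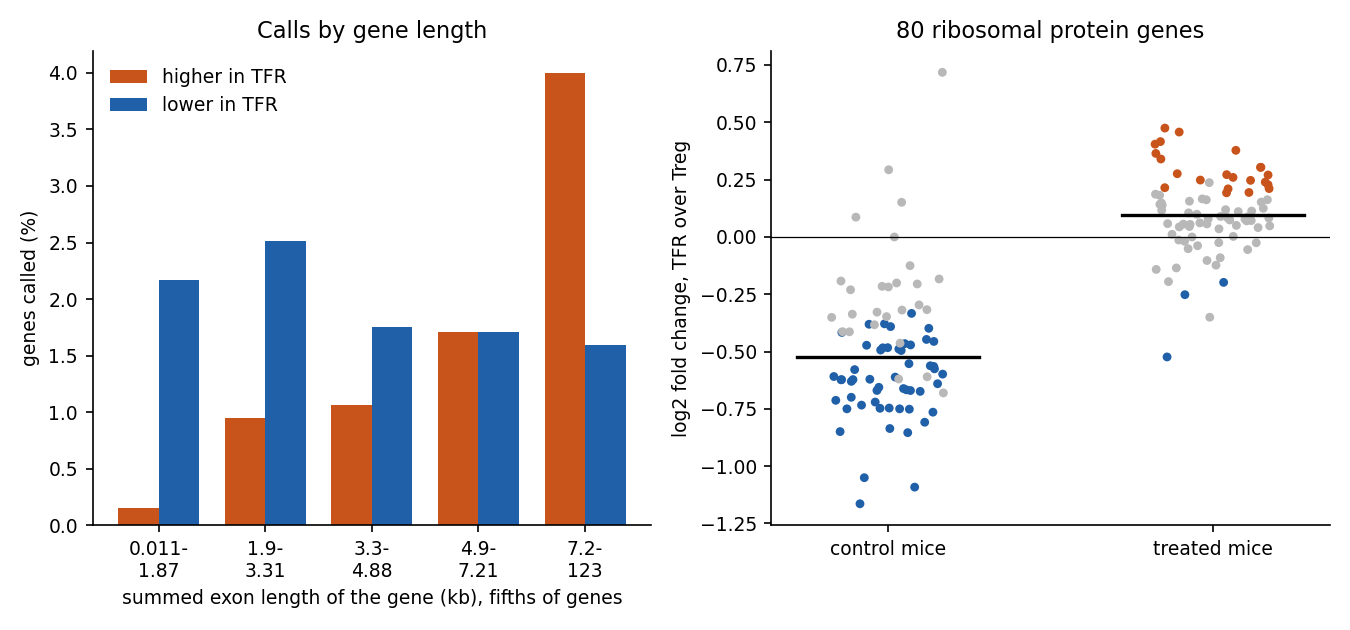
Left, percent of genes called higher (orange) or lower (blue) in control TFR than in control Treg cells, in 5 equal groups of genes by summed exon length. Right, log2 fold changes of TFR over Treg cells for 80 ribosomal protein genes in control and treated mice, 1 point a gene, coloured where called, with the median as a bar at -0.52 in control and 0.09 in treated mice.

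By size of change, the genes called higher in TFR cells were led by Dnase1l3, Padi4, Il13ra1, Olig2, Aurkb, Rsph1, Nfia, Slc2a6, Mcm10, Mastl, Fbn2, Ttbk1, Ncapg, Slc25a13 and Mki67. Dnase1l3, a secreted nuclease that digests chromatin in blood and whose loss causes lupus-like autoimmunity (chr14:7964533-7994573), had 87.5, 98.4 and 74.0 CPM in TFR against 5.13, 1.38 and 1.76 CPM in Treg libraries. It was 31.3-fold higher (4.97 ± 0.50, adjusted p = 0.00127). Olig2, a transcription factor best known from oligodendrocytes (chr16:91225457-91228677), had 41.8, 55.2 and 65.8 CPM in TFR against 5.02, 5.45 and 4.44 CPM in Treg libraries, 10.9-fold higher (3.44 ± 0.30, adjusted p = 8.46e-04). Nfia, a nuclear factor I transcription factor, had 115, 86.4 and 76.6 CPM in TFR against 9.70, 15 and 13.9 CPM in Treg libraries (2.85 ± 0.25, adjusted p = 8.46e-04). None of these 3 genes overlapped between the groups, and all 3 were called under every setting tried.

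Padi4, which converts arginine in histones to citrulline, had 2.08, 14.8 and 14.1 CPM in TFR against 0.480, 0.327 and 0.587 CPM in Treg libraries (4.45 ± 1.0, adjusted p = 0.049). Padi4 passed the filter on low counts through its TFR values alone, so its direction was fixed by the filter. Control TFR 1 was far below the other TFR libraries, and without control TFR 2 or 3 or any 1 of the Treg libraries the gene was not called (adjusted p up to 0.257). Slc2a6, a sugar transporter of the GLUT family, had 21.9, 27.6 and 25 CPM in TFR against 1.84, 5.38 and 3.98 CPM in Treg libraries (2.73 ± 0.49, adjusted p = 0.0198). Without a Treg library or control TFR 2 it was not called (adjusted p up to 0.117). Log2 fold changes of the remaining genes ran from 1.96 for Slc25a13 to 2.87 for Rsph1, and Rsph1, Mastl, Fbn2, Ttbk1 and Slc25a13 were each lost without any 1 of the Treg libraries.

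Among the genes called lower, 14 had no read in the 3 TFR libraries. They included Il12rb2 and Igfbp4, given above, Rgmb, a co-receptor of bone morphogenetic proteins (6.49 CPM on average in Treg libraries), and the NK cell receptor chain Klrd1 (4.48 CPM). Against the floor, and for counting error only, Rgmb and Klrd1 were at least 52.2-fold and 36.0-fold lower. Each was lost without any 1 of the Treg libraries. In all, 257 tested genes had no TFR read, and these 14 were the ones called. Such genes were tested on the strength of their Treg values alone, so that their direction was fixed by the filter, and the TFR libraries were the shallower ones with fewer genes detected. At these depths the floor of 3 reads is 0.124 CPM in TFR and 0.0382 CPM in Treg cells.

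Of the genes with reads in both groups, Prkd3, a kinase of the protein kinase D family, which diacylglycerol activates, had the largest decrease by the naming rule. It had 14.9, 26.0 and 10.9 CPM in TFR against 134, 120 and 148 CPM in Treg libraries, 7.65-fold lower (-2.94 ± 0.29, adjusted p = 0.00127). Pde3b, a phosphodiesterase that breaks down cyclic AMP, had 37.9, 37.2 and 30.7 CPM in TFR against 137, 115 and 130 CPM in Treg libraries (-1.85 ± 0.16, adjusted p = 8.46e-04). Both had non-overlapping groups and were called under every setting tried. St8sia6, a sialyltransferase, had 30.4, 18.5 and 9.77 CPM in TFR against 84.1, 86.8 and 95.6 CPM in Treg libraries (-2.16 ± 0.35, adjusted p = 0.012). Ctla2a, an inhibitor of cathepsin L, had 9.01, 12.1 and 21.1 CPM in TFR against 60.8, 50.6 and 57.1 CPM in Treg libraries (-2.01 ± 0.33, adjusted p = 0.0131). Dse, Hist1h4c, Mapk11 and Suox, with log2 fold changes of -2.77, -2.34, -2.31 and -2.0, were also among the genes named by size, as were Satb1 and Cxcr6. St8sia6, Ctla2a, Dse, Hist1h4c, Mapk11 and Suox were each lost without any 1 of the Treg libraries.

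Markers of other cells differed in level, and those of immunoglobulin, B cell and endothelial lists summed highest. Over 11 such lists, 47 genes were tested, of which none was called higher and 2 lower, Klrd1 and the immunoglobulin gene Iglc1. Over all genes tested the share called was 3.52%, so the small number of calls is no result about these markers. Neither Klrd1 nor Iglc1 had a read in a TFR library, so both were tested on their Treg values alone and could only be called lower. The 20 B cell markers summed to 203 to 254 CPM in TFR and 188 to 208 CPM in Treg libraries, led by Pou2f2, which T cells also express, and Cr2, Fcer2a, Bank1 and Fcrla were at 0 in all 3 TFR libraries. The 16 plasma cell and immunoglobulin genes summed to 306 to 357 CPM in TFR and 232 to 260 CPM in Treg libraries, without overlap, most of it from Ighm. Ighm had 299, 264 and 217 CPM in TFR against 198, 178 and 169 CPM in Treg libraries (0.52 ± 0.13, adjusted p = 0.07), and 8 of the other settings tried called it higher. The 12 endothelial markers summed to 108 to 138 CPM in TFR and 147 to 169 CPM in Treg libraries, led by Pecam1. The 13 markers of follicular dendritic and stromal cells summed to at most 6.14 CPM in TFR and 3.52 CPM in Treg libraries, and the 11 proximal tubule markers to at most 5.64 and 0.812 CPM. Podocyte markers summed to 8.30 to 29.3 CPM in TFR and 28.9 to 36.4 CPM in Treg libraries, led by Synpo, with Wt1 and Ptpro at 0 in both groups. The part of the RNA behind the higher immunoglobulin sum in the follicular gene results was not tested.

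The same comparison could be made in treated mice, whose libraries share none with the control pair. These were deeper, with 35.4 to 50.9 M counts in treated TFR and 38.2 to 53.8 M in treated Treg libraries, and mitochondrially encoded genes took 2.52 ± 0.0451% and 2.0 ± 0.179% of their counts (SD, n = 3 each). Kidney transcripts marked 1 library of each group, with podocyte markers summing to 715 CPM in TFR 1 and 212 CPM in Treg 3 of that arm. The other TFR libraries there held 18.1 and 19.1 CPM of them and the other Treg libraries 26.2 and 28.1 CPM. Of 16294 genes tested there, 3168 were higher (19.4%) and 3559 lower (21.8%) in TFR than in Treg cells. Of the 207 genes called higher in control mice, 102 were called higher and 56 lower in treated mice. Of the 256 called lower in control mice, 99 were called lower and 52 higher. Their median log2 fold changes were 0.83 and -0.73 in control and 0.17 and -0.04 in treated mice.

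The difference of the 2 differences was tested across 16270 genes, and 15% of them were called. Among the genes called in control mice these were 138 of the 207 higher and 195 of the 256 lower ones. These genes were chosen on the control libraries, which the difference also uses, so these shares and the smaller medians in treated mice are partly set by that choice. Without treated TFR 1 and treated Treg 3, the libraries with kidney transcripts, 917 genes in all were called, against 2446 with them. Follicular genes mostly kept their direction, and 10 of the 13 called in control mice were called higher in treated mice too. The 13 include the sort genes Cxcr5 and Pdcd1, which check the gates and are no finding. Cxcr5 had log2 fold changes of 1.69 in treated and 1.75 in control mice. Those of Tox2 and Bcl6, which are not genes of the gates, were 1.80 and 0.78 in treated mice and 1.86 and 0.86 in control mice. Btla went the other way in treated mice, at -0.46 (adjusted p of the difference = 4.82e-05). Of the 13 naive genes called in control mice, 12 were called lower in treated mice as well, with Satb1 at -0.52, less negative than in control mice (adjusted p of the difference = 6.42e-06). Igfbp4, which had no TFR read in control mice, had 0.44 in treated mice and was not called there (adjusted p = 0.155).

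Treg genes and ribosomal protein genes differed between the arms too. Ikzf2 was lower in TFR than in Treg cells of treated mice (-0.32), Nt5e likewise (-1.06) and Nrp1 too (-1.37), each with a called difference (adjusted p = 2.03e-05, 1.08e-05 and 1.73e-04). Of the 29 ribosomal protein genes called lower in control mice, none was called lower in treated mice and all 29 differed between the arms. Of the 80 ribosomal protein genes 22 were called higher and 3 lower in treated mice, with a median log2 fold change of 0.09. Proliferation genes were called higher in all 35 cases in treated mice, with a median of 0.64. Il10 (1.86) and Lag3 (1.81), which did not pass in control mice, were higher in TFR than in Treg cells of treated mice. Depth and the mitochondrial share also differed between the arms, and their part in these differences was not tested. Nor were the differences examined gene by gene without the libraries with kidney transcripts.

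**Figure D5:**
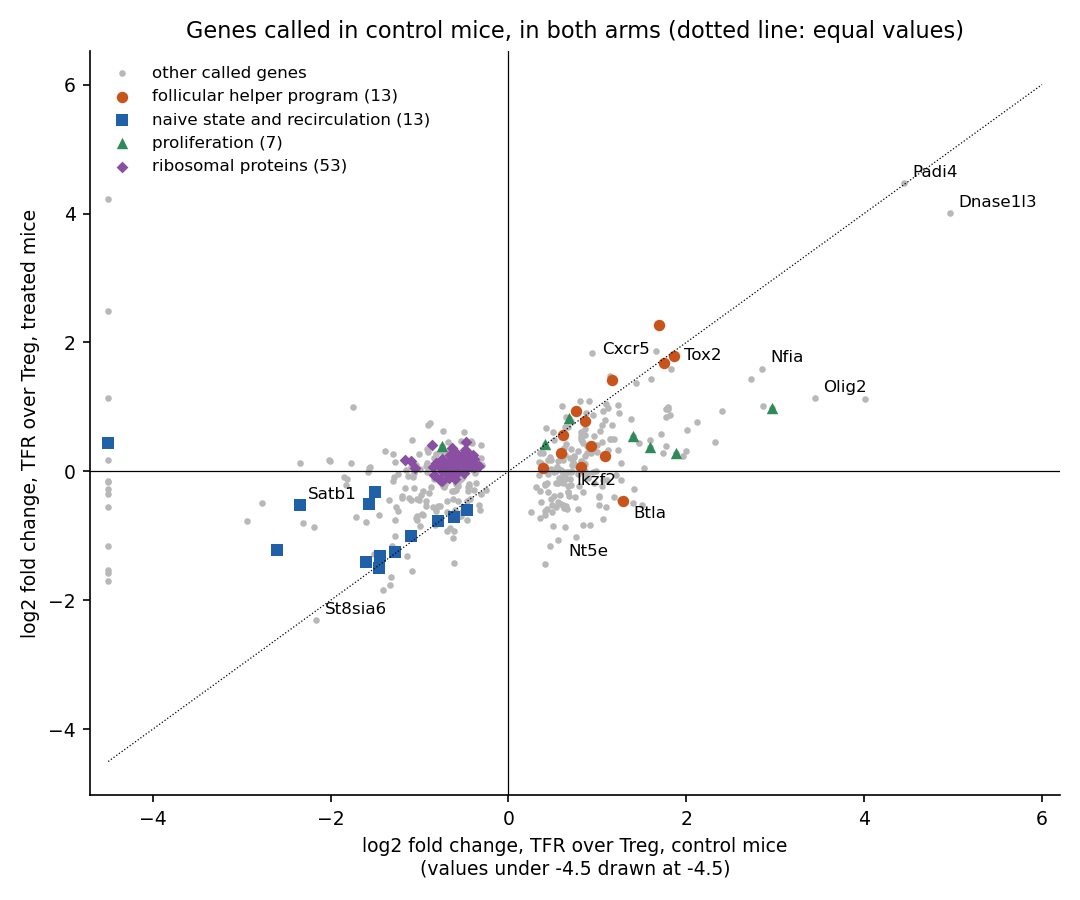
Log2 fold change of TFR over Treg cells in control mice (horizontal) and in treated mice (vertical) for the genes called in control mice, with follicular helper (13), naive (13), proliferation (7) and ribosomal protein genes (53) marked. Follicular and naive genes lie mostly in the quadrants of equal sign, and ribosomal protein genes lie left of 0 in control mice and around 0 in treated mice.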

How the data were processed

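Total RNA was column-purified with a DNase step and sequenced from CORALL libraries after removal of ribosomal RNA, per the labels' protocols. STAR and featureCounts were used with mm10, per the submitters' processing notes, while no source used here gives their versions, the strand setting or the counting of shared reads. What the authors deposited are whole-number read counts per gene, without normalization, for 39056 Ensembl genes, to which GENCODE release M21 (GRCm38) added symbols and positions for 38872.

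The 6 libraries were fitted with edgeR 4.0.16 in R 4.3.3. After filterByExpr by group, 13163 genes were left, scaling used TMM factors, no covariate was used, and the two-sided quasi-likelihood F test was adjusted by Benjamini-Hochberg over all genes tested at a threshold of 0.05. Standard errors were derived from the F statistics. The treated pair was fitted in the same way, and the difference between the arms in 1 fit of 12 libraries. Exons overlapping another gene are mentioned from 20% of a gene's exon length. No 2 libraries of a group agreed within counting noise (chi-square per degree of freedom at least 15.7), so none was taken as a re-sequenced copy and each was counted once. This check cannot tell separate mice from separate preparations of the same RNA. Fold bounds cover counting error only and leave out the spread between libraries, which the standard errors include. The fits were tried on simulated data.

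The 36 gene lists, the tests and the naming rule were chosen with earlier results of these data known. In each direction the rule takes up to 15 genes with the largest change, among called genes without overlap and with at least 5 CPM in the higher group, leaving out predicted genes, pseudogenes and immunoglobulin genes. To these come a fixed set of genes and, from each list, the 3 members of smallest p. Cebpa, Vsir, Il6st, Bach2, Foxp1, Rora, Bhlhe40, Zeb2, Nfil3, Nr4a1 and Kif23 were named as list members after their values were seen. Results of some genes chosen by the rule are not reported here. Alternatives were relative log expression factors, no filter, a mean of at least 10 CPM, DESeq2 1.42.0, limma 3.58.1 voom with quality weights, all 24 libraries, a replicate block, a fit without receptor, haemoglobin and mitochondrial genes, thinning to the smallest library, and leaving out each library. Sums and shares of counts are exact within the files, and their precision is limited by the 4.85 M counts of the smallest library.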

Additional observations from a re-analysis of the deposited data

Results flagged for a closer look

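The TFR-Treg difference was tested between control and treated mice for the genes named above, by the contrast of the 2 log2 differences (control minus treated) in edgeR's quasi-likelihood test. The genes below had an adjusted p under 0.05. They were not examined gene by gene without the treated libraries with kidney transcripts. Negative values mean a lower TFR-Treg difference in control than in treated mice. Without a TFR read in control mice, so that the fitted size is no estimate, were Iglc1 (-13.39), Igfbp4 (-11.77), Il12rb2 (-11.55), Rgmb (-10.42) and Klrd1 (-9.95). Ribosomal protein genes were Rplp1 (-1.41) and Rps14 (-1.16). Naive-state and migration genes were Satb1 (-1.88), Ccr7 (-1.25), Lef1 (-1.12), Selplg (-0.71) and Ccr2 (-1.67). Treg, co-inhibitory and costimulatory genes were lower in this contrast for Lag3 (-2.12), Il10 (-1.61), Tnfrsf18 (-1.01), Prdm1 (-0.87), Tnfrsf9 (-0.58), Il2ra (-0.55), Vsir (-0.48) and Foxp3 (-0.44). They were higher for Nrp1 (1.80), Btla (1.69), Nt5e (1.56), Ikzf2 (0.92), Itgb8 (0.92) and Cd200 (0.69). Other receptors, follicular and signalling genes were Il13ra1 (2.82), Il1r2 (0.89), Sh2d1a (0.78), Tbc1d4 (0.47), Nfkbiz (0.55), Il6st (0.38), Cish (-1.20), Il4ra (-0.97), Ltb (-0.65), Thy1 (-0.62) and Tnfaip3 (-0.46). Cell cycle genes were Aurkb (1.91), Mastl (1.80), Ncapg (1.62), Mki67 (1.53), Mcm10 (1.40), Top2a (0.78) and Kif23 (-1.21). Early activation, apoptosis and transcription factor genes were Fosl2 (-0.97), Bcl2l11 (-0.96), Nr4a1 (-0.81), Nfil3 (-0.48), Mcl1 (-0.45), Olig2 (2.25) and Nfia (1.19). The rest, named by size of change, were Hist1h4c (-2.56), Ctla2a (-2.26), Suox (-2.24), Prkd3 (-2.23), Pde3b (-1.82), Mapk11 (-1.57), Rsph1 (1.78), Slc25a13 (1.65) and Ttbk1 (1.30).

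The sign of the TFR-Treg difference itself was opposite in the arms for 19 of these 60 genes, among them Ikzf2, Nt5e, Btla, Nrp1 and Nfkbiz, which were higher in control TFR cells, and Rplp1, Rps14, Fosl2 and Kif23, which were lower. Nrp1 did not itself pass the test in control mice.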

How the results depend on the processing

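The count of genes higher and lower in control TFR than in control Treg cells, 207 and 256, was 240 and 218 with relative log expression factors, 233 and 323 without the filter, 273 and 304 at a mean of at least 10 CPM, 344 and 275 with voom, 210 and 254 without receptor, haemoglobin and mitochondrial genes, and 232 and 245 after thinning. DESeq2 gave 909 and 997 and the fit of all 24 libraries 429 and 1402. With the replicate block it was 216 and 307, and same-numbered libraries did not deviate together (correlations of -0.00484 to 0.0108). Leaving out 1 library gave 43 to 335 higher and 67 to 444 lower. Calls among the list genes numbered 104, 197 with DESeq2 and 37 to 127 with 1 library left out. In treated mice the fit of all 24 libraries gave 334 higher and 532 lower, and leaving out 1 library 2284 to 3457 and 2260 to 3790. Genes whose difference was larger or smaller in control than in treated mice, 852 and 1594, numbered 1518 and 2018 with DESeq2, 424 and 984 in all 24 libraries, 759 and 898 after thinning, 505 to 1379 and 852 to 2563 with 1 library left out, and 358 and 559 without the libraries with kidney transcripts. Of 94 named genes 83 were called. All 83 kept their sign under every alternative that gave a value, 29 stayed called under all of them, and 66 under all but those that left out 1 library. The block lost 9 of the 83 calls (Vsir, Ltb, Cebpa, Klrd1, Dse, Padi4, Rsph1, Mastl and Slc25a13). Voom lost 7 (Vsir, Ltb, Klrd1, Dse, Il2ra, Kif23 and Mapk11) and thinning 7 (Ltb, Cebpa, Dse, Padi4, Rsph1, Il2ra and Kif23). The fit of all 24 libraries lost 6 (Maf, Cd200, Itgb8, Zeb2, Rsph1 and Slc25a13), relative log expression factors 4 (Vsir, Ltb, Dse and Tnfaip3) and the fit without the filter 2 (Vsir and Slc25a13). Depth limits genes with few TFR reads most.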
